A study of Homo sapiens with 2 samples.

Results

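The MYC and MAX network is a set of basic helix-loop-helix leucine zipper transcription factors that pair with one another and compete for the same DNA sites. The 10 genes described here, MYC, MAX, MXD1, MXI1, MXD3, MXD4, MNT, MGA, MLX and MLXIP, were chosen by name, and all 10 were found by Ensembl gene ID among the 22965 genes listed in both libraries. The libraries came from H460, a human large-cell lung cancer line grown in DMEM with serum. The first came from cells labelled vector (genotype control; which vector is not given in the sources used here) and the second from cells in which pSin-puro delivered PKP2, which encodes the desmosomal protein plakophilin 2. Both cultures were at passage 5. There was 1 library per group, so no difference below has a replicate check, no test across samples exists, and the size of each ratio is a description. Whether the overexpressing cells were a pool or a clone is not given in the sources used here.

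MYC binds DNA only as a pair with MAX, at the E-box, and turns on genes of growth and biosynthesis. The MXD proteins, MNT and MGA also pair with MAX and repress through the same sites, the MXD proteins and MNT by bringing in the SIN3-HDAC corepressor and MGA as the scaffold of the Polycomb complex PRC1.6. MLX is a second hub, which pairs with the nutrient-sensing factors MLXIP (MondoA) and MLXIPL (ChREBP) and with some of the MXD repressors.

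The vector library held 23513304 counts and the PKP2 library 20319137, and genes of the mitochondrial genome took 8.07% and 7.94% of them. PKP2 itself went from 181 to 1330 counts, 8.66-fold higher in the PKP2 library. The keratins KRT8, KRT18 and KRT19 made up nearly all of the summed level of the epithelial markers, which was 1223 CPM (counts scaled to the effective library size) with vector and 1233 CPM with PKP2. Within that sum KRT8 (697 and 465 CPM) and KRT18 (251 and 188 CPM) were lower in the PKP2 library and KRT19 (274 and 578 CPM) was higher. CDH1 was not listed. The neuroendocrine gene CHGA was at 22.8 and 17.2 CPM. Of the lung lineage markers, NKX2-1 had 10 and 3 counts and NAPSA 8 and 0. Of the leukocyte genes, PTPRC and CD3E were not listed and CD14 had 90 and 23 counts (3.79 and 1.14 CPM). Of the endothelial genes, PECAM1 and CDH5 were not listed and VWF had 2 and 0 counts. The fibroblast markers summed to 51.3 and 29.2 CPM over the 3 of 4 that were listed, with COL3A1 and COL1A1 lower and PDGFRB higher in the PKP2 library. The part of these markers in the results was not tested. In bulk RNA, fewer cells of a type and less RNA per cell cannot be told apart.

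All 10 network genes were well above the minimum of a mean of 10 counts, with means between 146 (MXD3) and 2057 (MGA). Ratios are given as the log2 of CPM in the PKP2 library over CPM in the vector library, with 95% intervals that cover counting error only. No network gene was 2-fold different in either direction, where, of the 15991 genes at or above the minimum, 2.47% were 2-fold or more higher and 4.61% were 2-fold or more lower. MLX stood on one side, 1.51-fold higher in the PKP2 library, and 8 members had ratios below 0. At 1.5-fold, 2 members were lower (MXD3 and MXD4) and 1 higher (MLX), against 12.9% and 6.87% of all genes. The counting interval lay wholly below 0 for 7 of the 10 members and wholly above 0 for 1, against 28.8% and 25.9% of all genes. These shares depend on depth, because well-counted genes have narrow intervals. Ratios below 0 were found in 52.7% of all genes, and the median ratio was -0.30 over the 10 members and -0.03 over all genes.

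**Figure D1:**
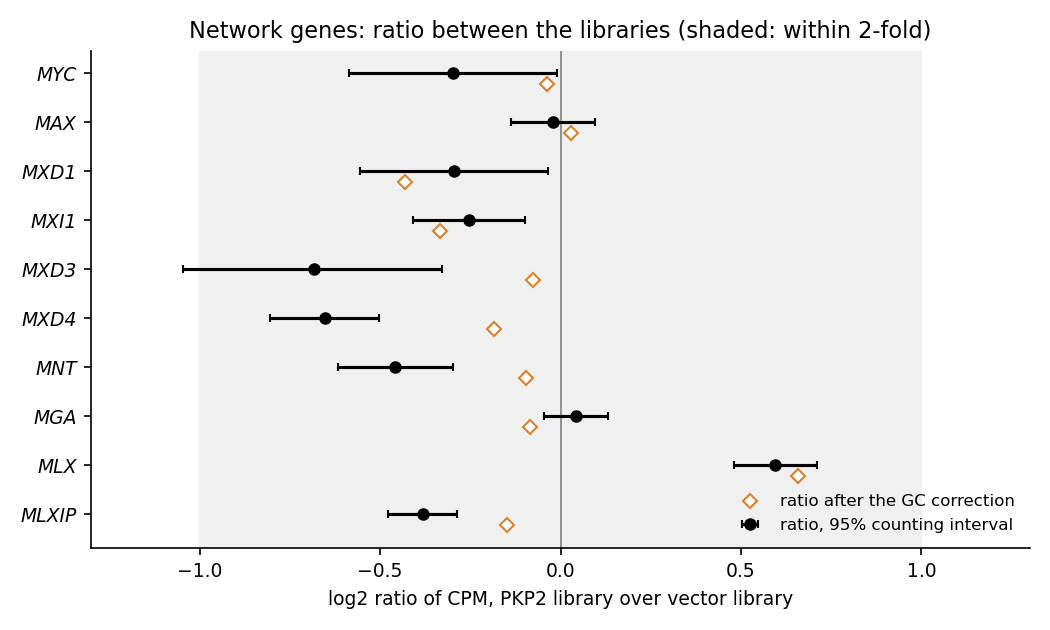
The log2 ratio of CPM (PKP2 library over vector library, 1 library each) for the 10 network genes. Black points carry 95% counting intervals, open diamonds are ratios after subtraction of the trend with transcript GC content, and shading marks ratios within 2-fold. MLX lies at 0.60 and MXD3 and MXD4 lie lowest, at -0.68 and -0.65, while the diamonds of MXD3, MXD4 and MNT lie closer to 0.

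The ratio also varied with base composition. Across 11610 well-counted genes (mean of 100 counts or more, known transcript), it was lower the higher the GC content of the transcript (Spearman's rho -0.61, across genes that share the same 2 libraries). The median ratio was 0.19 over the 4415 such genes under 45% GC and -0.43 over the 1597 with at least 60%. The network genes range from 42.7% GC (MXD1) to 67.2% (MXD3), so each ratio is given beside its GC-corrected value, the ratio minus a smooth curve through all well-counted genes. After this correction 8 of the 10 members were below 0, against 51.1% of all genes, and the median of the 10 was -0.09. They were not the same 8. MAX moved from -0.02 to 0.029 and MGA from 0.04 to -0.086.

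**Figure D2:**
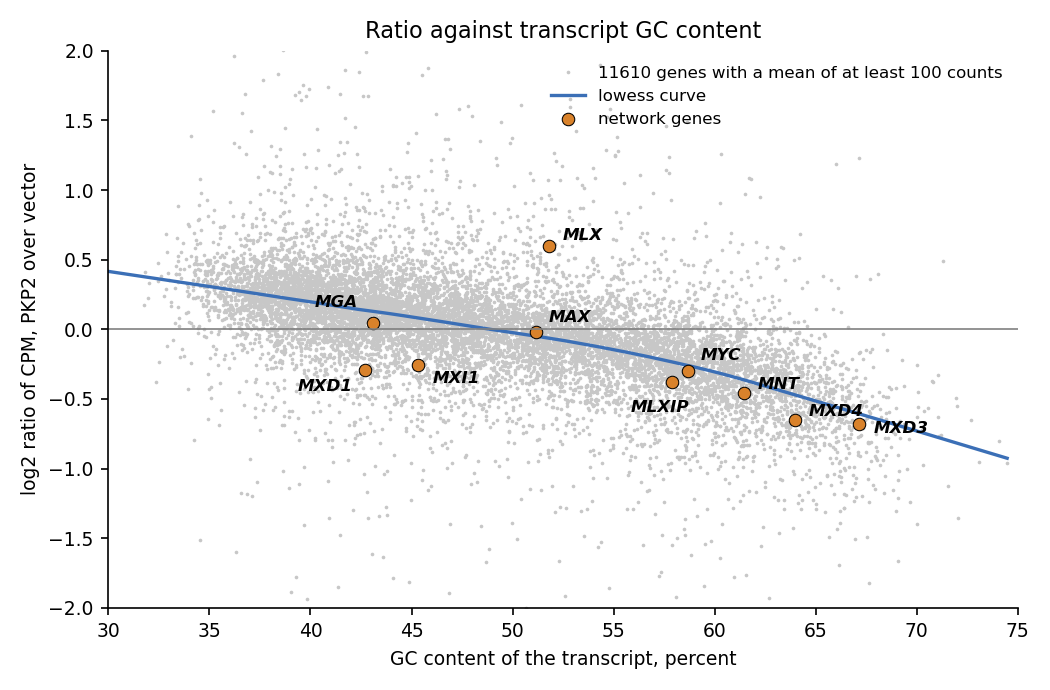
The log2 ratio of CPM (PKP2 over vector) against the GC content of the transcript, for 11610 well-counted genes (grey; 44 lie outside the drawn range), with the smooth curve (blue) and the network genes (orange). MLX sits above the curve, MXD1 and MXI1 sit below it at low GC content, and MXD3, MXD4, MNT, MLXIP and MYC lie near its falling end.

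The network's factors bind the E-box, so the DNA before the start is shown for the members found to hold it there. These are MLX, which was higher, and MXD4 and MNT, which were lower. Promoter windows (RefSeq, GRCh38.p14, a build other than that named for the counts) were matched for 9 of the 10 members, all but MYC, and gave 14 windows of 250 bases before to 50 bases after each start. The canonical E-box CACGTG, which reads the same on both strands, was found in 3 of these 14 windows, those of MLX, MXD4 and MNT. Of 16288 windows of genes at or above the count minimum 9.33% hold it, and of all 35116 windows 7.26%. By gene, 3 of 9 members hold it in at least 1 window, against 12.6% of 11178 genes at or above the count minimum. It begins 50 bases before the start in MLX, 238 in MXD4 and 193 in MNT. A match of these letters is a description of the window and not a measured binding site. The 250 bases before each start are printed 5′ to 3′ on the gene's own strand, with the E-box in capitals, for MLX at chr17:42566850-42567099 (plus strand), MXD4 at chr4:2262110-2262359 (minus strand) and MNT at chr17:2401061-2401310 (minus strand).
MLX: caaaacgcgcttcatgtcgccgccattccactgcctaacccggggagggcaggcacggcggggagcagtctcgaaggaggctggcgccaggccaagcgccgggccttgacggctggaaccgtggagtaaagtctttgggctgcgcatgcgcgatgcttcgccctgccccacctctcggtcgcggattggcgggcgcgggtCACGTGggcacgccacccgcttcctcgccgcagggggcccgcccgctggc
MXD4: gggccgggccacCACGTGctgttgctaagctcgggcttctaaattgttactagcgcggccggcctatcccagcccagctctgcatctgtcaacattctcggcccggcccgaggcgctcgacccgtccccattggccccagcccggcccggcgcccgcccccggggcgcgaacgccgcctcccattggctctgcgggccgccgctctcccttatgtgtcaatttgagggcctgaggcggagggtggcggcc
MNT: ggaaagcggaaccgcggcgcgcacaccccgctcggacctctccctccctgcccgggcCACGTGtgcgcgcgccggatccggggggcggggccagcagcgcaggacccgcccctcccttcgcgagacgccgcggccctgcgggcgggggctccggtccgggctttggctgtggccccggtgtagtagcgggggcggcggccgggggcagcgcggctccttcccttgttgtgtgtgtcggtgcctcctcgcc
The E-box was thus present before a gene that was higher and before genes that were lower in the PKP2 library. It was not found in the windows of MXD1, MXI1, MXD3 and MLXIP, which were also lower, or of MAX and MGA. GC made up 71.2%, 70.4% and 78.0% of the printed stretches.

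MYC (ENSG00000136997), the activator of the network, was counted 246 times with vector and 170 times with PKP2, or 10.4 and 8.44 CPM. The PKP2 library was the lower of the pair, with a ratio of -0.30 (interval -0.59 to -0.0086). The upper bound lies close to 0, and with DESeq2 size factors or upper-quartile factors it was 0.0014 and 0.011, so that the interval then took in 0 and 6 members, not 7, lay wholly below it. The GC-corrected ratio was -0.036, and 42.6% of the 1657 well-counted genes within 2.5 percentage points of its GC content had a lower ratio. Both values rest on 1 transcript of MYC, 1365 bases long, where all exons of the gene span 3001 bases. The GC content of the remaining exons was not used, and how it would change these values was not tested. MAX (ENSG00000125952), the partner that MYC and its antagonists share, had 1342 and 1123 counts, or 56.6 and 55.8 CPM. Its ratio of -0.02 (interval -0.14 to 0.10) took in 0, and its GC-corrected ratio was 0.029. The count of MYC per count of MAX, which does not depend on how libraries are scaled, was 0.183 in the vector and 0.151 in the PKP2 library, 0.826 times the vector value with an interval of 0.664 to 1.02 that took in 1.

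All 4 genes of the MXD family, short repressors that displace MYC from MAX, were lower in the PKP2 library. MXD4 (ENSG00000123933), with the E-box farthest from its start among those printed, had 1021 and 551 counts, or 43.0 and 27.4 CPM, a ratio of -0.65 (interval -0.81 to -0.50). MXD3 (ENSG00000213347) had 191 and 101 counts, or 8.05 and 5.02 CPM, a ratio of -0.68 (interval -1.05 to -0.33). Both have GC-rich transcripts, and after the GC correction MXD4 was at -0.18 and MXD3 at -0.076. MXI1 (ENSG00000119950) had 830 and 591 counts, or 34.98 and 29.3 CPM, a ratio of -0.25 (interval -0.41 to -0.10). MXD1 (ENSG00000059728), the founding MAD gene, had 299 and 207 counts, or 12.6 and 10.3 CPM, a ratio of -0.29 (interval -0.56 to -0.033). These transcripts are poor in GC, where most genes were higher in the PKP2 library, and the corrected ratios were further from 0, at -0.43 for MXD1 and -0.33 for MXI1. Of the 2586 well-counted genes within 2.5 percentage points of MXD1 in GC content 6.26% had a lower ratio, and of the 2391 within the same distance of MXI1 10.8%. By raw ratio MXD3 and MXD4 were thus the lower pair of the family, and by corrected ratio MXD1 and MXI1 were.

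By raw ratio, MYC and the MXD repressors were all lower in the PKP2 library. GC-corrected, MYC was at -0.036, MXD3 at -0.076, MXD4 at -0.18, MXI1 at -0.33 and MXD1 at -0.43. The summed counts of MXD1, MXI1, MXD3 and MXD4 per count of MYC were 9.52 with vector and 8.53 with PKP2, or 0.896 times the vector value, and the interval of 0.726 to 1.11 took in 1. Within the family, MXD4 per count of MXI1 went from 1.23 to 0.932, 0.758 times the vector value (interval 0.652 to 0.881). These count ratios carry no correction for GC content, after which MXI1 was lower than MXD4.

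MNT (ENSG00000070444), also with an E-box in its printed promoter, is the broadly expressed repressor that holds MAX sites in growing and resting cells. It had 851 and 526 counts, or 35.9 and 26.1 CPM. Its ratio was -0.46 (interval -0.62 to -0.30), and -0.095 after the GC correction. MGA (ENSG00000174197), which carries a T-box as well as the helix-loop-helix domain, had 2195 and 1919 counts, or 92.5 and 95.3 CPM. Its ratio of 0.04 (interval -0.05 to 0.13) took in 0, and it was -0.086 after the GC correction. MGA per count of MNT went from 2.58 to 3.65, 1.41 times the vector value (interval 1.25 to 1.61). That count ratio carries no correction for GC content, and the GC-corrected ratios of MGA and MNT (-0.086 and -0.095) lay close together.

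The MLX branch went apart. MLX (ENSG00000108788) was the only member whose interval lay above 0, with 1105 and 1417 counts, or 46.6 and 70.4 CPM, and a ratio of 0.60 (interval 0.48 to 0.71). Its printed promoter carries the E-box nearest to a start, and its transcript has 51.8% GC, near the middle of the range, and its corrected ratio was 0.66. Of the 1790 well-counted genes of like GC content 95.8% had a lower ratio than MLX. Its partner MLXIP (ENSG00000175727) had 2298 and 1497 counts, or 96.9 and 74.3 CPM, with its ratio at -0.38 (interval -0.48 to -0.29), and -0.15 after the correction. MLX per count of MLXIP thus went from 0.481 to 0.947, 1.97 times the vector value (interval 1.78 to 2.18). MLX per count of MAX, the other hub, went from 0.823 to 1.26, 1.53 times the vector value (interval 1.37 to 1.72). Neither count ratio carries a correction for GC content. MLXIPL, the other Mondo factor and not one of the 10 genes, was counted 164 and 57 times and lay at -1.29 (interval -1.75 to -0.85), and at -0.84 after the GC correction. Both Mondo partners were thus lower in the library where MLX was higher. Of the 1697 well-counted genes of GC content like that of MLXIP, 26.4% had a lower ratio than MLXIP. The remaining paralogs were hardly present: MYCL had 5 and 4 counts, and MYCN was not listed.

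Some members share sequence or exons with other genes, and how such reads were counted is not given in the sources used here. MXD3 shares 37.8% of its 31-base stretches with other listed genes and overlaps RAB24 on its own strand and PRELID1 on the other, and summed over these 3 genes the ratio was -0.28. MLX shares 20.8% and overlaps PSMC3IP on the opposite strand, which had 565 and 539 counts and a ratio of 0.17 (interval -0.0043 to 0.34), and the summed ratio of both genes was 0.46. MXD1 overlaps SNRNP27 on the same strand, with a summed ratio of -0.14 (interval -0.28 to 0.00049) that took in 0. MNT shares 16.5% and overlaps ENSG00000262456, which had 2 and 0 counts. MYC, MAX, MXI1 and MXD4 share no 31-base stretch with another listed gene.

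The order of levels was nearly the same in both libraries. Per kilobase of transcript, the scale on which genes can be compared, MAX was the highest, at 36.6 (vector) and 36.1 (PKP2) CPM per kilobase. MLX came next with 18.0 and 27.2, then MXI1 with 14.4 and 12.1 and MLXIP with 11.5 and 8.82. MXD4 had 10.6 and 6.75 and was passed by MGA, which had 7.68 and 7.91. MYC had 7.60 and 6.18, MNT 7.18 and 5.23, and MXD3 5.43 and 3.38, while MXD1 was the lowest with 2.26 and 1.84. The counting intervals of MGA, MYC and MNT overlapped in the vector library, and so did those of MLXIP and MXD4 (11.03 to 12.0 and 9.97 to 11.3). In the PKP2 library those of MYC and MXD4 overlapped, and those of MYC and MNT. By its 1365-base transcript, MYC thus stood in the middle of the measured genes, above 54.1% (vector) and 50.03% (PKP2) of them. MAX stood above 87.5% and 87.3%. MAX made up 30.2% (vector) and 31.2% (PKP2) of the members' summed level, and MLX 14.9% and 23.6%. With the length of all exons of a gene in place of 1 transcript, MAX took 21.0% and 21.5% and MLX 18.0% and 28.2%, so that MLX, not MAX, was then the highest in the PKP2 library. On that scale MXD3 (1.56 with vector and 0.973 with PKP2), not MXD1 (1.98 and 1.62), was the lowest in both libraries. MYC (3.45 and 2.81) then lay below MNT (4.11 and 2.99), with overlapping counting intervals.

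**Figure D3:**
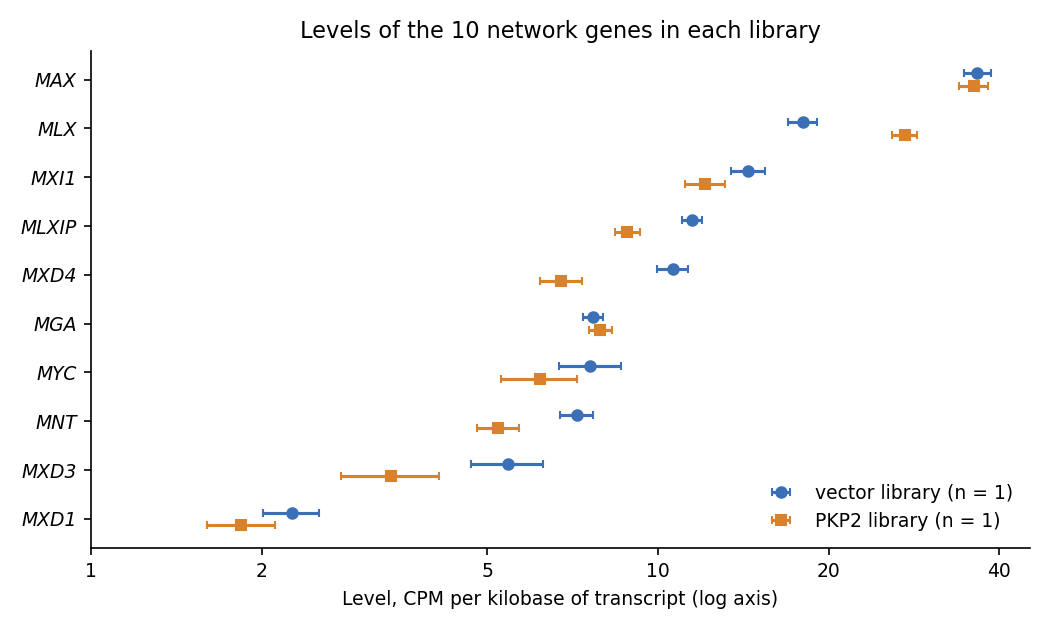
The level of each network gene in CPM per kilobase of transcript (log axis), in the vector library (circles) and the PKP2 library (squares), with 95% counting intervals. MAX is highest in both, and MLX is the 1 gene whose PKP2 value lies clearly to the right of its vector value.

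Genes around the network were taken from lists of its partners, regulators and targets, 228 genes beside the members, of which 207 were at or above the count minimum. Of these, 2 were past 2-fold on the higher side (DAZL and PDGFRB) and 5 on the lower (MLXIPL, SREBF1, OTUB1, THBS1 and GPD1). That is 0.966% and 2.42%, below the shares of 2.47% and 4.61% among all genes. With the GC correction the same 2 genes were higher and THBS1 alone was lower. The median ratio of the 207 genes was -0.06.

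The target genes of MYC went both ways. Among all genes, 52.7% had ratios below 0, and 51.1% after the GC correction. Of 35 nucleolar and ribosome assembly targets, all within 2-fold, 22 had ratios below 0 and 13 above, with a median of -0.06 and 0.013 after the GC correction. The ribosome assembly genes NOC4L (-0.66), NIP7 (-0.59) and BOP1 (-0.53) were the farthest from 0. After the GC correction NIP7 was at -0.70, NOC4L at -0.16 and BOP1 at -0.010. Of 28 metabolic targets, again all within 2-fold, 16 were below 0 and 12 above (median -0.08, and 0.046 GC-corrected). Fatty acid synthase FASN (22078 and 11077 counts, ratio -0.76) and the glutamine transporter SLC1A5 (-0.64) were the lowest, and the purine synthesis enzyme PAICS (6400 and 8696 counts, ratio 0.68) the highest. GC-corrected, they were at -0.23, -0.28 and 0.54. ODC1, the polyamine enzyme often used as a MYC reporter, had a ratio of 0.44, and 0.49 GC-corrected (looked up after the values were seen). Among 23 cell cycle, translation and chaperone targets (median -0.06), the telomerase gene TERT (-0.83) and the pro-apoptotic BAX (-0.72) were lowest and the helix-loop-helix inhibitor ID2 (0.70) highest. GC-corrected, TERT was at -0.29, BAX at -0.39 and ID2 at 0.80, and TERT and BAX were then not the lowest pair, since CKS2 (named after its value was seen) was at -0.41. Of 14 genes that MYC represses, 11 were below 0 (median -0.26, and -0.11 GC-corrected). The matrix protein THBS1 had only 29 and 7 counts (-1.81), the stress sensor GADD45G 49 and 25 (-0.73), and the receptor PDGFRB, also counted above as a fibroblast marker, 111 and 208 (1.14). GC-corrected, they were at -1.89, -0.26 and 1.37. CDKN1A (p21), the best known of them and looked up after the values were seen, was at -0.22 (2894 and 2102 counts) and, GC-corrected, at 0.015, on the other side of 0. The activated and the repressed lists thus all had medians below 0 before the GC correction, and after it the nucleolar and metabolic medians lay above 0.

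Of the genes that act on MYC, the cofactors had a median of -0.14, and of 0.057 after the GC correction. All 18 were within 2-fold, the chromatin factor HCFC1 (-0.50) and the SWI/SNF subunit SMARCB1 (-0.36) being the lowest and the P-TEFb cyclin CCNT1 (0.31) the highest. GC-corrected, they were closer to 0, at -0.13, -0.068 and 0.14. Of 16 genes of MYC turnover (median -0.01), the deubiquitinase gene OTUB1 went from 1918 to 813 counts (-1.002, and -0.69 GC-corrected). The F-box genes of this list differed, with BTRC at -0.51 and FBXW7 at 0.33 (-0.59 and 0.15 GC-corrected). SKP2 (-0.02) and FBXO28 (0.28), also F-box genes and named after their values were seen, lay between them. Of 14 genes of MYC transcription and mRNA (median 0.00042), the mRNA-binding proteins IGF2BP2 (-0.62) and IGF2BP3 (0.45) lay at opposite ends, at -0.63 and 0.27 GC-corrected, and the noncoding RNA PVT1, a neighbour of MYC, was at -0.38 (1210 and 789 counts; -0.31 GC-corrected).

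Of the corepressor genes of the MXD proteins and MNT, all 19 SIN3-HDAC genes were within 2-fold, as were all but 2.47% (higher) and 4.61% (lower) of all genes. Their median was 0.0083, and -0.045 after the GC correction, with the PHD-finger subunit ING1 at -0.71 (438 and 227 counts; -0.74 GC-corrected) and SIN3B at -0.37 (-0.046 GC-corrected). All 14 genes of PRC1.6, the complex of MGA, were within 2-fold too (median 0.04, and -0.052 GC-corrected), from RING1 at -0.43 to RYBP at 0.31 and YAF2 at 0.35. GC-corrected, these 3 were at -0.059, 0.13 and 0.039, and the lowest was then TFDP2 at -0.32 (named after its value was seen). HDAC1, HDAC2 and WDR5 stand in more than 1 list.

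Germline genes that PRC1.6 represses were mostly silent: of 19 named, 8 were not listed and 4 of the other 11 were below the minimum. Those 4 were TAF7L (2 and 1 counts), STAG3 (4 and 3), MEI1 (4 and 3) and SYCP3 (2 and 8), the first 3 with ratios below 0. The 7 that passed were all higher in the PKP2 library, with a median of 0.57, and 0.37 after the GC correction, which left all 7 above 0. Over the 10 listed genes with a count in each library, which leaves out DAZL and takes in those 4, the median was 0.38, and with 5 CPM added to each level it was 0.19 over the 7. DAZL, an RNA-binding protein of germ cells, had no count with vector and 30 counts with PKP2. Its counting interval begins at 9.01-fold higher with PKP2. That lower end covers counting error only, not the spread between cultures, and is no certain minimum. Set against a floor of 3 counts per library (0.126 CPM in the vector) and with no error on the 30 counts, the fold is 11.8. MEIOC, a meiosis regulator, had 54 and 76 counts (0.73) and ZCWPW1, a histone reader of meiosis, 35 and 48 (0.69), at 0.47 and 0.71 GC-corrected. A low gene can pass the minimum through the library where it is high, as DAZL did, so the count of 7 is no measure of the list. The counting interval lay above 0 for 4 of the 7, DAZL among them (25.9% among all genes), and the same limit holds for that count.

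Targets of the MLX branch had a median of -0.07 (13 genes, 7 below 0). TXNIP, the arrestin-like inhibitor of glucose uptake and best known MLXIP target, was higher in the PKP2 library, with 845 and 954 counts and a ratio of 0.41 (interval 0.28 to 0.55). ARRDC4, its paralog and the other widely used reporter of MLXIP, had 405 and 428 counts and a ratio of 0.32 (looked up after the values were seen). After the GC correction they were at 0.30 and 0.19. GPD1, which makes glycerol phosphate, had only 38 and 15 counts (-1.10), and the zinc finger factor KLF10 had 1506 and 816 (-0.65), at -0.90 and -0.73 GC-corrected. Other factors that bind E-boxes as helix-loop-helix leucine zippers were below 0 in all 8 measured cases, against 52.7% of all genes. Their median was -0.36, and -0.13 GC-corrected, with 6 of 8 still below 0, against 51.1% of all genes. The median GC content of their transcripts was 58.9%. The sterol regulator SREBF1 went from 3679 to 1500 counts (-1.06, and -0.55 GC-corrected), TFAP4, a MYC target, was at -0.76 (-0.55 GC-corrected) and the lysosomal regulator TFEB at -0.75 (-0.32 GC-corrected). Among the genes named from lists, NIP7, SLC1A5, IGF2BP3, STAG3 and MEIOC share over 20% of their 31-base stretches with other listed genes, so their counts are less certain.

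**Figure D4:**
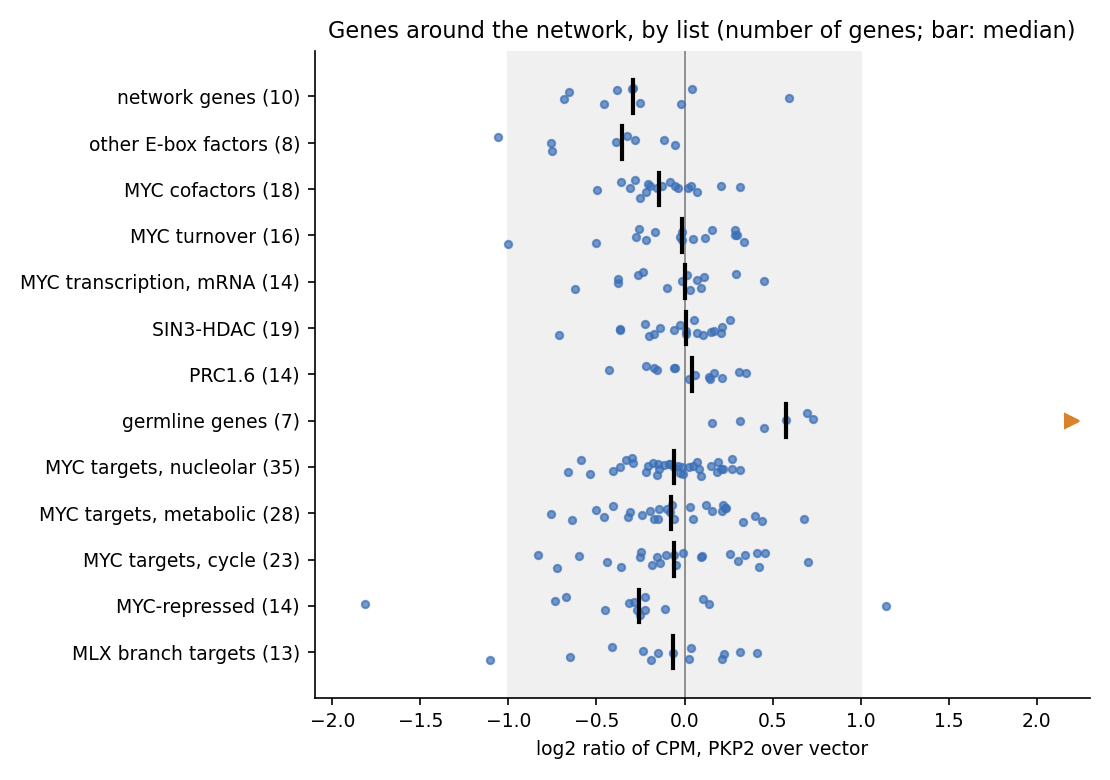
The log2 ratio of CPM (PKP2 over vector) for every gene at or above the count minimum, by list, with the number of genes in parentheses, the median as a bar and ratios within 2-fold shaded. The triangle stands for DAZL, at 0 counts in the vector library, whose ratio has no upper bound. Most genes lie within 2-fold on either side of 0. The 7 germline genes drawn all lie above 0, but that count depends on the minimum. DAZL passed it only through the PKP2 library, and germline genes under the minimum are not drawn.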

How the data were processed

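Libraries were made from total RNA with the Illumina TruSeq kit, per the labels' protocols. Reads were processed with Bowtie 0.12.2 and the builds GRCh37 and hg19, per the submitters' processing notes; the sources used here do not name the counting program, annotation or use of strand. Each file lists Ensembl gene IDs with a raw count, per the file headers. The values deposited by the authors are classed as estimated counts because 1 damaged row of each deposited file holds a decimal, and no gene count needed rounding. In each file 2 rows without a readable gene count were left out.

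Library sizes were total counts times TMM factors from edgeR 4.0.16 in R 4.3.3; its test was not run, since it needs replicates. Intervals of ratios are exact binomial (Clopper-Pearson), those of levels exact Poisson and those of count ratios conditional exact. All cover counting error only, as reads lacking molecular identifiers may be copies of 1 molecule. Genes needed a mean of at least 10 counts. GC content and length came from the principal (otherwise longest) transcript in GENCODE 29, by gene ID, for 15893 of these 15991 genes. The GC curve was a lowess with fraction 0.3 in statsmodels 0.14.6, drawn through those with means of 100 counts or more. Other steps used Python 3.11.15 and SciPy 1.17.1. Of all steps, only the ratios, their binomial intervals and the GC curve were tested on simulated data.

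The members and lists were chosen with earlier results of these data known. Named genes are the members, PKP2 and, of each list, those past 2-fold (up to 6), filled to 3 by size of ratio; 1 gene that this rule names is not reported here. Alternatives were other scalings (DESeq2 1.42.0 size factors among them), pseudocounts, filters, thresholds, GC and length corrections, means and exon lengths.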

Additional observations from a re-analysis of the deposited data

How the results depend on the processing

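Of 319 values recomputed for 33 results, 286 stayed within the main value's interval (or, for counts, within 1.5 times), and no result whose interval excludes 0 changed sign. Some of the 286 could not have moved, as a fold threshold does not enter a median and every network gene passes each count minimum. No paired analysis was possible because each group has 1 library. Total counts, DESeq2 size factors and upper-quartile factors in place of TMM moved none beyond those limits. The GC correction moved MXD3 to -0.076, MXD4 to -0.18, MNT to -0.095, MGA to -0.086, MLXIP to -0.15 and the median of MYC cofactors to 0.057. With the median of the 100 nearest genes in GC content and length subtracted, these were -0.17, -0.27, -0.079, -0.13, -0.16 and 0.030. Under either correction 1 listed gene outside the network was at least 2-fold lower, against 5. Lower genes numbered 3, 2 and 1 with 0.5, 1 and 5 CPM added, and higher genes, 2 in the main count, 1 with 1 CPM and 0 with 5 CPM added. Under a minimum of 50 counts 3 were lower and 1 higher. At 1.5-fold 2 network genes were lower and 1 higher, and 19 listed genes were lower and 6 higher; at 3-fold 1 and 1. Summing overlapping genes, chosen after the data were seen, moved MXD3 to -0.28 and MLX to 0.46. With the length of all exons, MAX took 21.0% (vector) and 21.5% (PKP2) of the summed level and MLX 18.0% and 28.2%. The mean of germline genes has no value, because DAZL is at 0 in 1 library. The cause of these shifts was not tested beyond what each alternative changes by construction. With 1 library per group, depth bounds counting error, not the spread between cultures.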
